A study of Mus musculus with 6 samples.

Results

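Open chromatin was examined at *Syt1*, *Sv2c*, *Camk2b*, *Celsr3* and *Bex2*, 5 neuronal genes that the study names in the fields of synaptic function, neuronal identity and neurogenesis. A peak was assigned to a gene when it overlapped the gene body or the 20 kb on either side of it (GENCODE M21 annotation, GRCm38). Peaks of the 6 libraries that overlapped by at least 1 bp were merged into regions, which gave 54 regions at the 5 genes among 119719 on the assembled chromosomes. As a group the genes are only partly synaptic. *Syt1* and *Sv2c* are named by the study for the synapse and *Camk2b* for neuronal identity, whereas *Celsr3* and *Bex2* are named for neurogenesis.

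The libraries came from neural stem cell (NSC) cultures of the subependymal zone (SEZ), a neurogenic niche of the adult mouse brain, taken at 10 weeks of age. All mice were Srr2del/del, which means that CRISPR-Cas9 had removed *Srr2* from both alleles on a C57BL/6J background. *Srr2* is an enhancer near *Sox2*, the transcription factor that maintains neural stem cells, so every library of either state lacked it, and WT libraries were not analysed here. The study bred the mice from a pair of founders made with different guides, and the labels do not say which strain gave which library. In the proliferating state (PROLIF), cells were plated on Matrigel with FGF for 2 days in vitro (2 DIV). In the early differentiating state (DIFF), the same 2 days were followed by 1 day without mitogens in medium with serum (2 + 1 DIV). Each state had 3 libraries, labelled replicates 1, 2 and 4. The question put to the data was which regions at the neuronal genes were open in the mutant cells, and which differed between the states.

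In ATAC-seq a transposase cuts and tags DNA that is not covered by nucleosomes, so that a peak marks an accessible stretch such as a promoter or an enhancer. The products of *Syt1* and *Sv2c* sit in the membrane of synaptic vesicles, where synaptotagmin 1 is the calcium sensor of transmitter release and SV2C is a vesicle glycoprotein. *Camk2b* encodes the beta subunit of CaMKII, a kinase abundant at synapses, *Celsr3* an atypical cadherin that guides axons, and *Bex2* a small protein of the brain-expressed X-linked family. Many neuronal genes carry the RE1 element, the site bound by the repressor REST, which holds them silent in cells that are not neurons. Accessibility of a gene's start site is not a measure of its transcription.

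The lists held 60006 to 88039 peaks. The lowest local background of the peaks, given as its 1st percentile, was 2.85 to 3.63 reads in all libraries but DIFF replicate 4, where it was 6.01 reads. PROLIF replicate 1 had the longest list of its state (82741 peaks) and DIFF replicate 4 of its own (88039 peaks). Of 6 NSC markers (*Sox2*, *Nes*, *Sox9*, *Slc1a3*, *Fabp7*, *Egfr*), all had a promoter peak in every library. Of 5 endothelial markers, 4 had none in any library, and *Pecam1* had one in the 3 PROLIF libraries alone. Of 6 neuronal markers, *Map2*, *Elavl4* and *Tubb3* had a promoter peak in every library, *Rbfox3* and *Stmn2* in 2 PROLIF and 3 DIFF libraries each, and *Dcx* in none. In these bulk libraries, fewer cells with an open region and less accessibility per cell cannot be told apart.

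Every gene had a region within 3 kb of an annotated start site that was open in all 6 libraries, whereas most of the other regions were missing from at least 1. A peak was present in all 6 libraries at 23 of the 54 regions (42.6%), beside 33.5% over all regions of the series. At 14 regions (25.9%) a peak was present in 1 library, beside 29.6% over all regions, and 17 lay between. The shared regions were broader and stronger, with a median width of 725 bp and a median fold enrichment of 8.47, against 132.5 bp and 3.31 for the regions of 1 library. A region is the union of its peaks, and weak peaks are missing from the lists. Both width and strength are therefore tied to occupancy by construction, and the same medians over all regions were not computed. Fold enrichment is the pileup at the summit over the local background of the same library, after 1 read is added to each. Of the regions, 42 lay in a gene body and 12 in a flank, and 19 (35.2%) were within 3 kb of an annotated start site, beside 29.9% over all regions. The density of regions ran from 2.53 per 100 kb at *Syt1* to 13.2 per 100 kb at *Camk2b*.

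**Figure D1:**
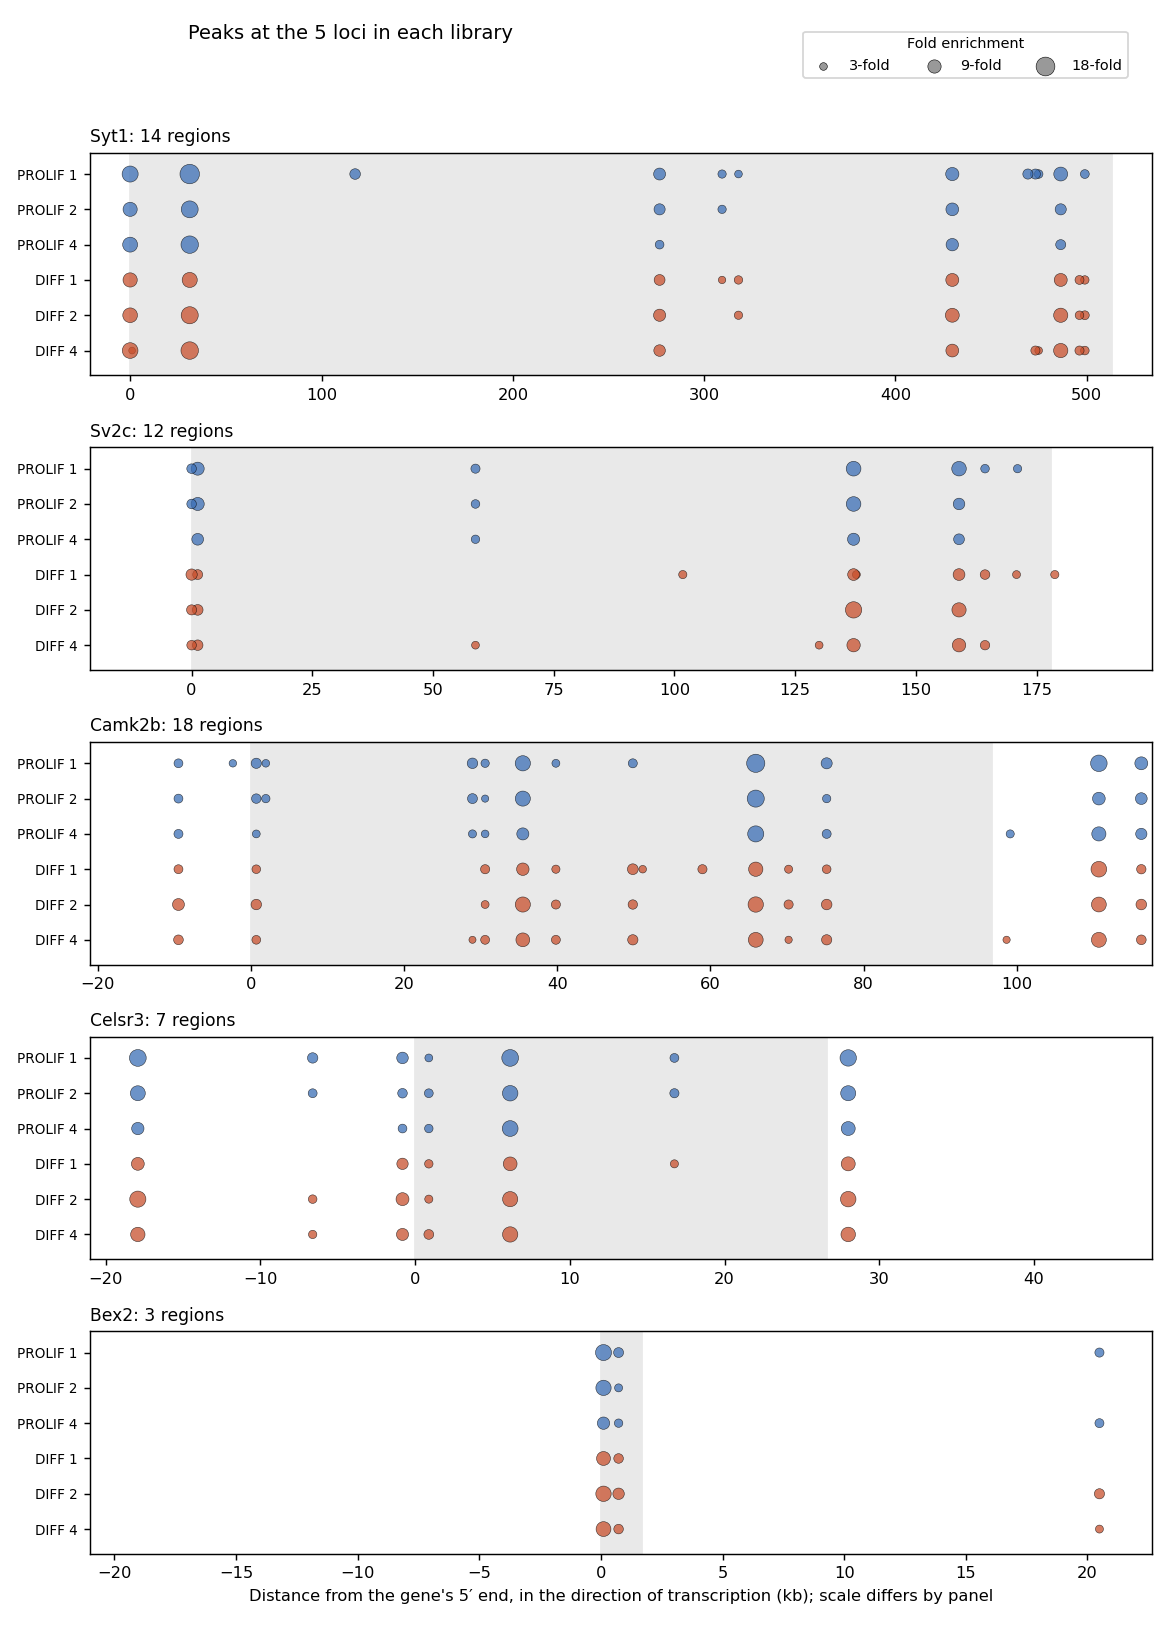
Peaks at the 5 genes in each library. The x axis gives the distance of a region from the gene's 5′ end in kb in the direction of transcription, on a scale that differs by panel, the y axis the library, the grey band the gene body, and the area of a point the fold enrichment. The large points recur in all 6 libraries, and most small points are missing from some.

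The number of occupied regions overlapped between the states. At the 5 genes together, 42, 30 and 27 regions had a peak in PROLIF replicates 1, 2 and 4, and 39, 32 and 39 in the DIFF libraries of the same numbers. PROLIF replicate 1 held the most of all libraries. The means were 33.0 ± 7.94 in PROLIF and 36.7 ± 4.04 in DIFF (SD, n = 3 each; p = 0.6 by a two-sided exact permutation test, whose smallest p is 0.1). Over the whole series the lists differed in the same direction, with 67120 ± 11769 regions in PROLIF and 73584 ± 9177 in DIFF. Per gene, the mean difference in favour of DIFF was 1.33 regions for each of *Syt1*, *Sv2c* and *Camk2b*, 0.00 for *Bex2* and -0.33 for *Celsr3*, and all 5 exact permutation tests gave an adjusted p of 1.0. *Syt1* spread widest, with 12, 6 and 5 regions in PROLIF against 9, 8 and 10 in DIFF. Without PROLIF replicate 1, the difference over the 5 genes was 8.17 regions, with an exact permutation p of 0.2. In lists of equal length the means were 27.7 in PROLIF and 32 in DIFF, and the exact permutation p was 0.1, the smallest this design allows.

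**Figure D2:**
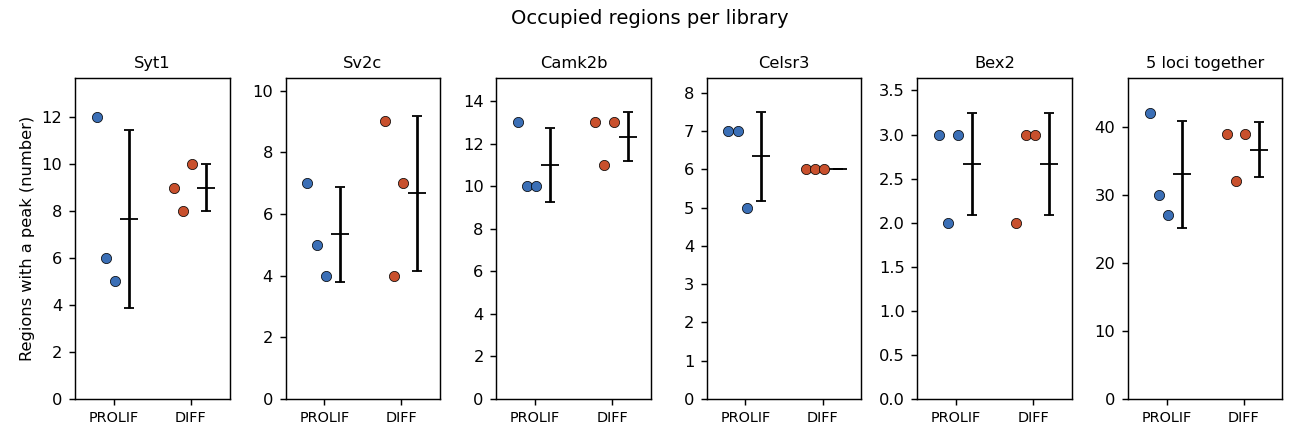
Occupied regions per library. The y axis gives the number of regions with a peak, each point is a library, and the bar beside the points is the mean ± SD of the 3 libraries. The states overlap at every gene and over the 5 together, and PROLIF replicate 1 lies highest among the PROLIF libraries at *Syt1*, *Sv2c* and *Camk2b*.

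Regions open in one state only were few. There were 2 DIFF-only regions, with a peak in every DIFF and no PROLIF library (3.70% of 54, beside 3.48% over all regions), and 0 PROLIF-only regions (beside 1.79% over all regions). At *Syt1*, the DIFF-only region chr10:108514670-108514910 lay in intron 9 of the longest coding transcript, 496 kb from the 5′ end of the gene. Its fold enrichment was 4.10, 3.79 and 4.28 in DIFF replicates 1, 2 and 4. At *Camk2b*, the DIFF-only region chr11:5996090-5996223 lay in intron 5, 70.2 kb from the 5′ end, at 3.35, 4.32 and 2.74. Both were weak, with no pileup above 35 reads, and a missing peak means only that the signal stayed under the caller's threshold. A further 3 regions had a peak in all DIFF libraries and in PROLIF replicate 1 alone, namely chr10:108511871-108512132 at *Syt1* and chr11:6016267-6016731 and chr11:6026475-6026614 at *Camk2b*, so that without that library the DIFF-only count was 5. In the opposite direction, 2 regions were missing only from DIFF replicates 1 and 2, chr13:96073643-96073920 at *Sv2c* and chr11:6037283-6037590 at *Camk2b*. Without DIFF replicate 4 the PROLIF-only count was 2. The shares over all regions without these libraries were not computed, so neither count can be read as particular to the 5 genes. PROLIF replicate 1 and DIFF replicate 4 also held the most regions of the series with a peak in 1 library, 10076 and 10697. The sequences around the summits of both DIFF-only regions are given on the strand of the gene, since these are the stretches that were called in DIFF alone.
Syt1 intron 9, chr10:108514704-108514804, minus strand: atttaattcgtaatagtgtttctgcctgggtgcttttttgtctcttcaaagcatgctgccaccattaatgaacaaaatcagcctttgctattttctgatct
Camk2b intron 5, chr11:5996066-5996166, minus strand: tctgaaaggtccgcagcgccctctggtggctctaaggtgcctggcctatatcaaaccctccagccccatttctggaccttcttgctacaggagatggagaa

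Strength was compared at the 23 regions with a peak in every library, by limma on quantile-normalised log2 fold enrichment fitted to all 40102 such regions of the series. Of the 23, 2 were higher in DIFF and 1 was lower (13.0% called, beside 15.8% over all regions tested, 6.92% higher and 8.9% lower). The called regions were an intronic region of *Syt1*, the upstream promoter region of *Celsr3* and an internal start site of *Camk2b*. The median difference of the 23 was 0.15 on the log2 scale, beside 0.027 over all regions tested, and 15 of the 23 were positive. That median was 0.063 without DIFF replicate 4, 0.068 without PROLIF replicate 4, 0.077 without DIFF replicate 2 and 0.085 without PROLIF replicate 1. It was 0.048 at a q of 0.001, 0.086 outside chromosomes 10 and X and 0.108 with median centring. Without DIFF replicate 1 it was 0.123, without PROLIF replicate 2 0.142, and with replicate 1 left out of both states 0.160. The replicate block gave 0.147, and flanks of 10 or 50 kb gave 0.151. Normalised values did not overlap between the states at 8 of the 23, 4 higher and 4 lower in DIFF, beside 16.6% and 15.5% of all regions tested.

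**Figure D3:**
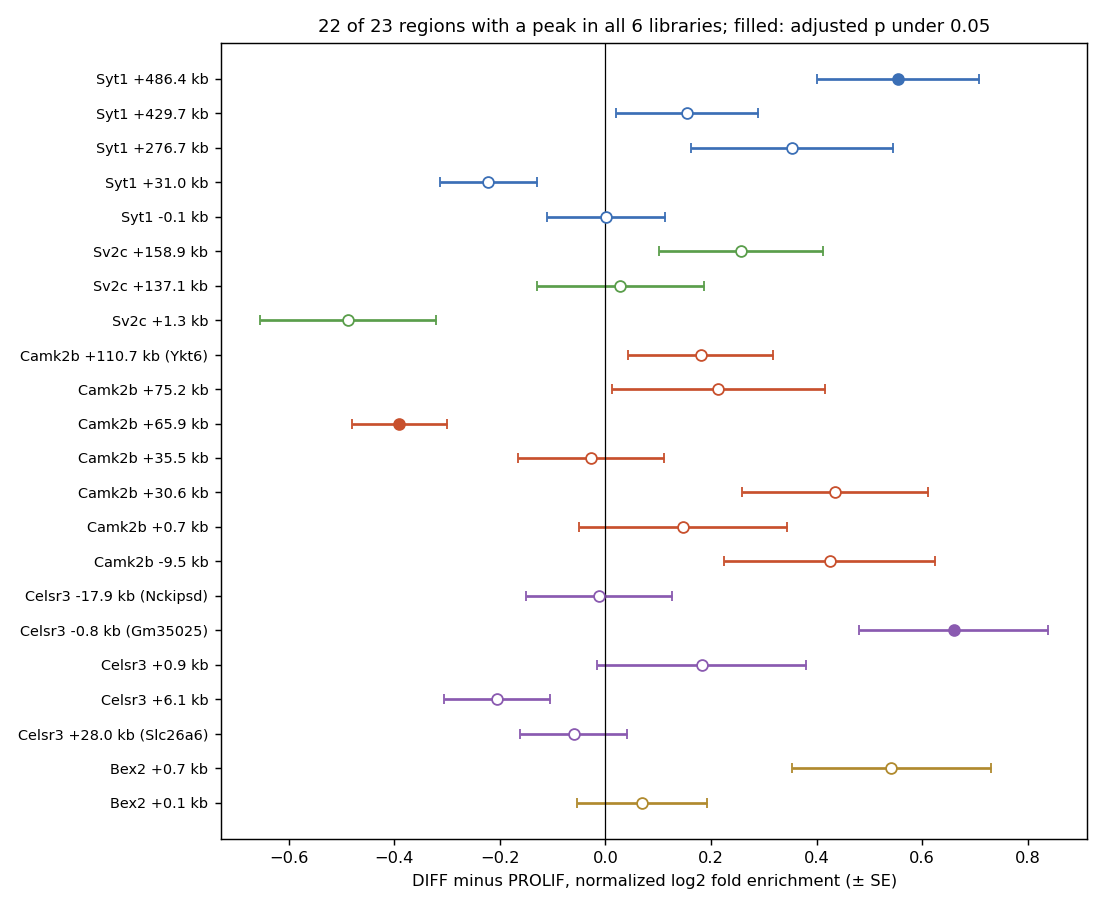
Differences at 22 of the 23 regions with a peak in all 6 libraries. The x axis gives DIFF minus PROLIF in normalised log2 fold enrichment with its standard error, and the y axis the gene and the distance of the region from its 5′ end, with a neighbouring gene in brackets where the region covers that gene's start site. Filled points (adjusted p under 0.05) are *Syt1* at 0.55, *Celsr3* at 0.66 and *Camk2b* at -0.39.

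*Syt1* (ENSMUSG00000035864.14) spans chr10:108497650-109010982 on the minus strand, and its 14 regions all lay in the gene body. The window chr10:108000001-109000000, which holds most of the gene, had 34, 23 and 16 peaks in PROLIF replicates 1, 2 and 4. It had 24, 25 and 31 in DIFF. These counts include the peaks at *Syt1*, and a count without them was not made. The next window, chr10:109000001-110000000, holds only the 5′ end of the gene. It had 35, 20 and 20 peaks in PROLIF and 17, 17 and 23 in DIFF. Scaled to list length, PROLIF replicate 1 was there at 1.33 times the mean of the other PROLIF libraries. The part of this excess in the *Syt1* values was not tested. Regions were open in all 6 libraries at 5 places, and 4 of these were intronic. The main start site, chr10:109010353-109011808, covers the first exon and its UTR. Its fold enrichment was 13.2, 10.3 and 11.4 in PROLIF and 10.4, 11.1 and 12.6 in DIFF, so the states overlapped. The normalised log2 difference was 0.0013 ± 0.11 (SE; adjusted p = 0.996). The strongest region of the gene was not the start site but chr10:108979400-108980465 in intron 1, 31.0 kb downstream, at 19.4, 14.6 and 15.6 in PROLIF and 11.7, 14.9 and 15.7 in DIFF. The difference there was -0.22 ± 0.09 (adjusted p = 0.113), with overlapping states. Of the remaining shared intronic regions, chr10:108580636-108581930 gave 0.15 ± 0.13 (adjusted p = 0.50) and chr10:108734114-108734477 gave 0.35 ± 0.19 (adjusted p = 0.240).

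The *Syt1* region that passed the threshold, chr10:108524219-108524978, lay in intron 9, 486 kb from the 5′ end, in the same intron as the DIFF-only region. Its fold enrichment was 9.88, 6.34 and 5.20 in PROLIF replicates 1, 2 and 4 and 8.63, 10.3 and 10.4 in DIFF replicates 1, 2 and 4. Before normalisation PROLIF replicate 1 lay among the DIFF libraries, and after it the states did not overlap. The normalised means were 2.75 ± 0.26 in PROLIF and 3.30 ± 0.09 in DIFF (SD of log2 values, n = 3 each), a difference of 0.55 ± 0.15 (SE; limma adjusted p = 0.0193). The pileup behind these values was 39, 24 and 19 reads in PROLIF and 39, 45 and 83 in DIFF. The call was lost without PROLIF replicate 2 (adjusted p = 0.0534), PROLIF replicate 4 (0.0644), DIFF replicate 2 (0.0501) or DIFF replicate 4 (0.107), and the difference stayed between 0.45 and 0.70 with any 1 library left out. The sequence around its summit is shown because this was the region of *Syt1* that passed the threshold.
Syt1 intron 9, chr10:108524551-108524751, minus strand: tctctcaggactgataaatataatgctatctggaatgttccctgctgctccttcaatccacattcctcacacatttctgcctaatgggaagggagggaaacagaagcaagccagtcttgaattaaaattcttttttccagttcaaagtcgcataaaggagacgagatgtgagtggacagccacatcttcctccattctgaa

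*Sv2c* (ENSMUSG00000051111.16), chr13:95954594-96132577 on the minus strand, had 12 regions, of which 3 were open in all 6 libraries and 6 in 1 library. The first exon, chr13:96132362-96132771, had a peak in 5 libraries and none in PROLIF replicate 4, at 4.75 and 4.70 in PROLIF and 6.52, 5.26 and 4.71 in DIFF. The most occupied region near a start site, chr13:96130829-96131788, lay in intron 1, 1.27 kb from the 5′ end. It reached 8.70, 8.81 and 7.06 in PROLIF and 5.06, 5.89 and 5.70 in DIFF, so that every DIFF library lay below every PROLIF library before normalisation as well as after it. The difference was -0.49 ± 0.17, and the adjusted p of 0.0537 missed the threshold, with a range of 0.0154 to 0.183 over the alternatives. The distal regions of *Sv2c* did not separate the states. The strongest, chr13:95995123-95995847 in intron 4, gave 11.1, 10.9 and 7.54 in PROLIF against 7.12, 13.6 and 9.13 in DIFF (difference 0.028 ± 0.16, adjusted p = 0.935). The region chr13:95973381-95973917 in intron 12 differed by 0.26 ± 0.16 (adjusted p = 0.298).

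**Figure D4:**
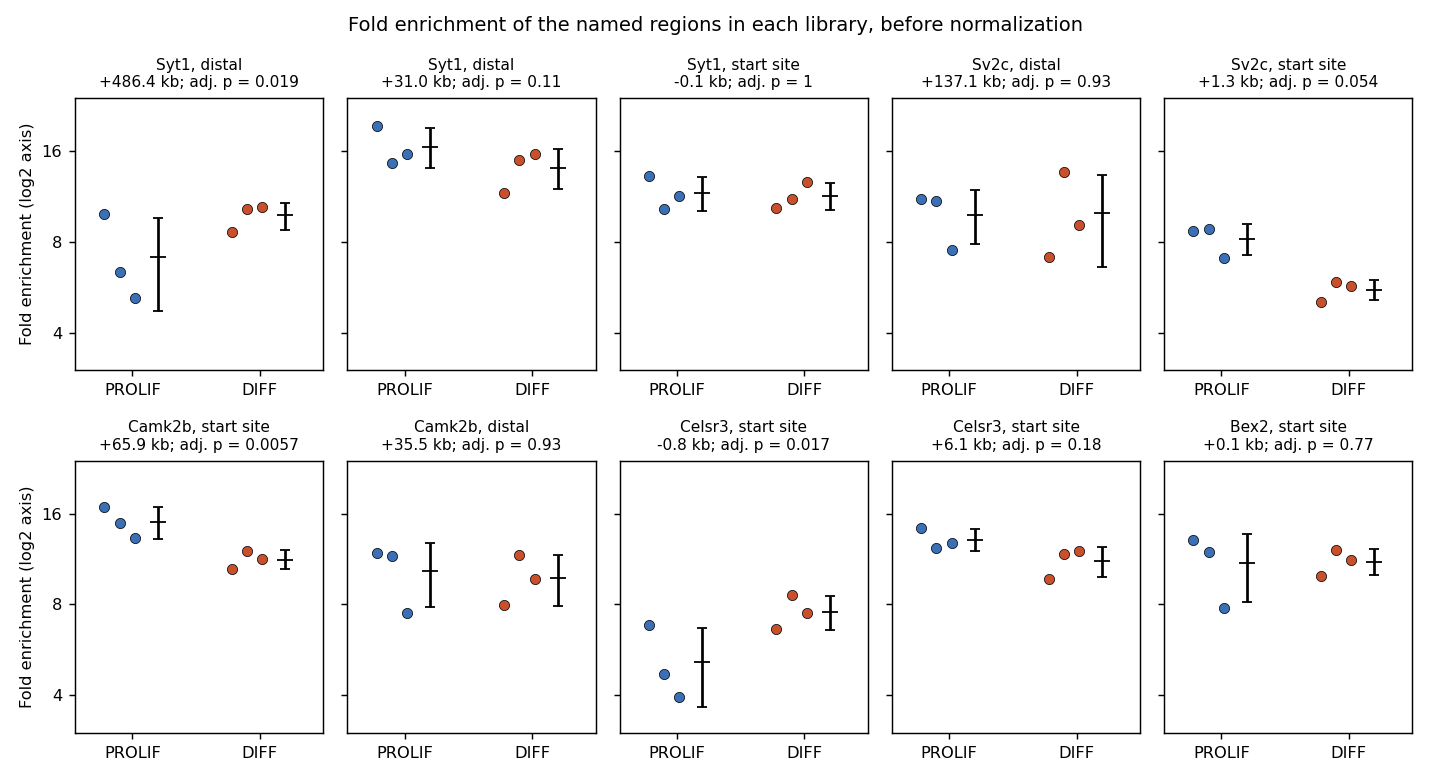
Fold enrichment of the named regions in each library before normalisation. The y axis is a log2 axis, each point is a library, the bar beside the points is the mean ± SD of the 3 libraries, and each title gives the distance from the 5′ end and the limma adjusted p. PROLIF lies wholly above DIFF at the *Sv2c* region in intron 1, the internal start site of *Camk2b* and the *Celsr3* region 6.1 kb downstream. The first-exon regions of *Sv2c* and *Camk2b* are not shown. PROLIF replicate 1 lies among the DIFF libraries at the *Syt1* region 486.4 kb downstream and the *Celsr3* region upstream of its start.

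*Camk2b* (ENSMUSG00000057897.14), chr11:5969644-6066362 on the minus strand, had the most regions, 12 in the body and 6 in the flanks. Its strongest region, chr11:6000099-6000794, was not at the first exon. It lay 65.9 kb downstream, within intron 4 of the longest coding transcript, and covered the start site of a shorter annotated transcript. Fold enrichment was 16.9, 14.9 and 13.2 in PROLIF and 10.5, 12.1 and 11.3 in DIFF, and every DIFF library lay below every PROLIF library. The normalised means were 3.90 ± 0.06 and 3.51 ± 0.02 (SD, n = 3 each), a difference of -0.39 ± 0.09 (SE; limma adjusted p = 0.00570). The pileup was 205, 152 and 118 reads in PROLIF and 91, 84 and 150 in DIFF. This call held with each of the 6 libraries left out (adjusted p from 0.0104 to 0.0299) and in all 12 alternatives, which include those 6 fits. The sequence around the summit holds a match to the AP-1 pattern TGANTCA, in which the middle base is free (here TGAATCA, in capitals). Over all regions of the series, 8.22% held such a match within 100 bp of the summit. Binding was not measured.
Camk2b internal start, chr11:6000463-6000663, minus strand: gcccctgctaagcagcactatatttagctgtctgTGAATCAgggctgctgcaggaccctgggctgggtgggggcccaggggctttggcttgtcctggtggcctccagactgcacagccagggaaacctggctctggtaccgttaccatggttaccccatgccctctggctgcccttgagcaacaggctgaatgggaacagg

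The first exon of *Camk2b*, chr11:6064976-6066359, was open in every library but weak, at 5.37, 4.63 and 3.17 in PROLIF and 3.83, 5.65 and 3.94 in DIFF. The difference was 0.15 ± 0.20 (adjusted p = 0.684), with overlapping states. In intron 1, chr11:6030544-6031179 was the strongest region far from any start site, with a difference of -0.027 ± 0.14 (adjusted p = 0.928). Beside it, chr11:6035486-6036083 gave 0.44 ± 0.18 (adjusted p = 0.106) and passed the threshold only without DIFF replicate 2 (0.0421). In intron 6, chr11:5991036-5991335 differed by 0.21 ± 0.20 (adjusted p = 0.538), and in the upstream flank chr11:6075512-6076149 differed by 0.42 ± 0.20 (adjusted p = 0.169). In the downstream flank, chr11:5955088-5956195 covers the start site of the neighbour *Ykt6*, and its difference was 0.18 ± 0.14 (adjusted p = 0.428).

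*Celsr3* (ENSMUSG00000023473.13), chr9:108826320-108852969 on the plus strand, had 7 regions, 5 of them open in all 6 libraries. The region that passed the threshold, chr9:108824762-108826249, ends 71 bp before the annotated 5′ end and covers the RefSeq start at position 108826045, as well as the start of the non-coding gene *Gm35025*. Fold enrichment was 6.84, 4.70 and 3.95 in PROLIF and 6.61, 8.57 and 7.51 in DIFF. PROLIF replicate 1 exceeded DIFF replicate 1 before normalisation, and the states were apart after it. The normalised means were 2.28 ± 0.20 and 2.94 ± 0.06 (SD, n = 3 each), a difference of 0.66 ± 0.18 (SE; limma adjusted p = 0.0165). The pileup was 50, 27 and 21 reads in PROLIF and 56, 55 and 76 in DIFF. Without DIFF replicate 2 or DIFF replicate 4 the adjusted p was 0.0628 and 0.0674, with differences of 0.63 and 0.65.

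The strongest region of *Celsr3*, chr9:108832008-108832918, lay over coding exons 6.14 kb downstream, 268 bp from an internal start site. Its DIFF values were below those of PROLIF, at 14.4, 12.3 and 12.8 in PROLIF and 9.72, 11.79 and 11.998 in DIFF, without overlap. The difference was -0.21 ± 0.10 (adjusted p = 0.185). A weak region over a coding exon at chr9:108826863-108827547 gave 0.18 ± 0.20 (adjusted p = 0.601). The only region of *Celsr3* over 3 kb from every start site, chr9:108819640-108819759, had a peak in 4 libraries, at 5.54 and 4.06 in PROLIF replicates 1 and 2 and at 3.79 and 3.57 in DIFF replicates 2 and 4. The seventh region, chr9:108842945-108843208, lay 27 bp from another internal start site and had a peak in 3 libraries. The regions over the start sites of the neighbours *Nckipsd* and *Slc26a6* differed by -0.012 ± 0.14 and -0.060 ± 0.10 (adjusted p = 0.968 and 0.753).

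*Bex2* (ENSMUSG00000042750.7), chrX:136066564-136068236 on the minus strand, is the shortest of the genes and had 3 regions. The start site, chrX:136067849-136068414, was at 13.1, 11.9 and 7.80 in PROLIF and 9.93, 12.1 and 11.3 in DIFF, so the states overlapped (difference 0.068 ± 0.12, adjusted p = 0.772). A weaker region inside the gene, chrX:136067261-136067762, was at 5.07, 3.30 and 3.64 in PROLIF and 4.75, 6.72 and 4.71 in DIFF. After normalisation its states were apart, with a difference of 0.54 ± 0.19 that missed the threshold (adjusted p = 0.0593). The third region, chrX:136047661-136047825, lay in the downstream flank and had a peak in 4 libraries, at 4.28 and 4.16 in PROLIF replicates 1 and 4 and at 5.31 and 3.28 in DIFF replicates 2 and 4.

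The RE1 element was searched because of its role at neuronal genes, as TTCAGCACC and GGACAGNGC with 2 free bases between them, on both strands, with at least 14 of the 17 fixed bases matching. The 5 genes with their flanks held 7 matches, 3 at *Camk2b*, 2 at *Celsr3*, 1 at *Bex2*, 1 at *Syt1* and 0 at *Sv2c*. The rate of such matches over the genome was not computed, so this count has no background beside it. Those at the minimum of 14 bases and outside a region lay 914 to 29220 bp from the nearest one. Of the 7, 2 lay inside a region. The *Celsr3* match (15 of 17 bases) lay 108 bp upstream of the RefSeq start, in the region that was higher in DIFF. All 6 libraries had a peak over it, and their summits lay 0 to 24 bp from it. The second match inside a region (14 of 17 bases) was at *Camk2b*, in chr11:6016267-6016731, with the summits of 4 libraries 0 to 25 bp away. The closest match to the motif (16 of 17 bases) lay at *Bex2*, inside the gene and 7 bp outside chrX:136067261-136067762, with summits 118 to 296 bp away. Over all regions of the series, 0.505% held a match within 100 bp of the summit, against 2 of the 54, and 0.183% of 32851 RefSeq promoters of 300 bases held one, against 1 of the 6 at these genes (the *Celsr3* promoter). A match is a run of letters, and binding was not measured. The matches are printed 5′ to 3′ on their own strand, with the 20 bases of the RE1 in capitals.
Celsr3 upstream promoter, chr9:108825825-108826025, plus strand: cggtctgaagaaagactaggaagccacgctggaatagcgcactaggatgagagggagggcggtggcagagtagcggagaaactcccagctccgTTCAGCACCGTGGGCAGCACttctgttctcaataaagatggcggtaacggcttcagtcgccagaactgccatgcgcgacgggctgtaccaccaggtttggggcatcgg
Camk2b intron 2, chr11:6016513-6016572, plus strand: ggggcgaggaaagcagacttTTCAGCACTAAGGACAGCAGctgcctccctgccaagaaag
Bex2 gene body, chrX:136067215-136067274, plus strand: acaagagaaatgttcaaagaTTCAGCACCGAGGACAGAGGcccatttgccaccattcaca

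The other motifs searched were less frequent, as frequent or more frequent than in the series, depending on the motif, and these shares were not tested. Within 100 bp of the summit, the SOX motif ACAANG lay in 15 of the 54 regions (27.8%, beside 39.1% of all regions) and the NFI half-site TTGGCA in 14 (25.9%, beside 18.4%). The E-box CAGCTG lay in 11 (20.4%, beside 19.6%), the E-box CAGATG in 7 (13.0%, beside 17.3%) and the AP-1 pattern in 2 (3.70%, beside 8.22%). None of the 6 motifs lay within 100 bp of the summit of the *Syt1* region that passed the threshold or of either DIFF-only region. The members' RefSeq promoters differed in CpG content, from 6 CpG in the second *Syt1* promoter to 51 in *Camk2b*, which exceeded 99.3% of all promoters. The second *Syt1* promoter, chr10:109009062-109009361, was the only one of the 6 that no region overlapped.

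Most genes of the same families and pathways had an open promoter. Of 71 genes in 7 lists, the 5 included, 62 (87.3%) had a promoter peak in all 6 libraries, beside 64.6% of 21938 protein-coding genes, and without the 5 it was 57 of 66 (86.4%). All 11 genes of synaptic adhesion and scaffold, all 6 of CaMKII and its inhibitors and all 5 of the Celsr and planar polarity list were among them, with 16 of 17 genes of vesicle release, 15 of 17 synaptotagmins and 2 of 3 SV2 genes. The BEX and TCEAL family had the lowest share of the 7 lists, 7 of 12 (58.3%). It also held the 3 genes without a promoter peak in any library, *Bex6*, *Tceal5* and *Tceal6* (beside 25.4% of protein-coding genes). The neighbours *Bex1* and *Tceal7* share their strongest promoter region, so they count as 1 measurement. No gene of the lists had a promoter open in a single state (all 3 libraries of it, and no library of the other), beside 0.228% (PROLIF) and 0.36% (DIFF) of protein-coding genes.

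The strongest promoter region could be tested in 55 of the 66 genes other than the 5. It was higher in DIFF at 5 and lower at 1, beside 4.11% and 2.3% of 12431 such regions of protein-coding genes. Of the higher genes, *Vamp2* encodes the vesicle SNARE (difference 0.64 ± 0.18, limma adjusted p = 0.0224), *Cplx2* a complexin that clamps SNARE complexes (0.52 ± 0.12, 0.00556) and *Unc13a* the priming factor Munc13-1 (0.48 ± 0.16, 0.0436). *Syt4*, another synaptotagmin, gave 0.64 ± 0.21 (0.0425), and *Shank2*, a scaffold of the postsynaptic density, 0.61 ± 0.15 (0.00821). The lower gene was *Syt11*, a synaptotagmin that does not bind calcium, at -0.38 ± 0.12 (0.0322). All 6 kept their direction in the 12 alternatives, which were chosen after seeing the data. With 1 library left out, *Cplx2* and *Shank2* passed the threshold all 6 times, *Syt4* 2 times, and *Vamp2*, *Unc13a* and *Syt11* 1 time each. Without DIFF replicate 4, 2 genes were higher and 0 lower.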

How the data were processed

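ATAC-seq peak lists of 3 PROLIF and 3 DIFF Srr2del/del libraries were analysed, grouped by the states in the labels. Before deposit, the authors removed adapters (Cutadapt) and low-quality ends (Trimmomatic), aligned the pairs to the GRCm38 build (mm10) using Bowtie2, and handled duplicates with Picard. MACS2 then called the peaks, library by library, with model building switched off and an FDR of 0.05. Versions are not given in the sources used here. Per the submitters' notes and the file layout, the deposited fold enrichment is the ratio of summit pileup to the background that MACS2 estimated around the peak, with 1 read added to each. The deposited −log10 p and −log10 q come from the same background, and the deposited score is the −log10 q multiplied by 10 and rounded down, except at 1 to 8 peaks of each library. The deposited lists also give the summit as an offset from the peak start. Peaks under the caller's threshold are missing from a list, so a missing peak is no measure of closed chromatin. The study's own test used read counts over peaks, which are not used here.

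Peaks on assembled chromosomes were merged where they overlapped by 1 bp. Pileup and local background were solved from fold and p under the caller's Poisson model, and came back whole (within 0.001 on the −log10 p) for at least 99.988% of the peaks with a −log10 p under 200. No read total was used, so precision is given by the spread of the 3 libraries. The design text calls the replicates biological. Strength was compared with limma 3.58.1 (eBayes with trend, R 4.3.3) on quantile-normalised log2 fold enrichment of the strongest peak, over all regions with a peak in every library, with Benjamini-Hochberg adjustment and a threshold of 0.05. No pseudocount was added to the 1 read that the deposited fold already holds, which understates the fold of weak peaks, and more so at low depth. In a self-test of this comparison (40102 regions, 200 changed by a known amount), 100% of changes of 1 and 45% of changes of 0.5 on the log2 scale were recovered, and 6.45% of calls were false. The noise was independent between libraries, with a spread smoothed over regions of like strength. In the data, 15.8% of regions were called, far more than were changed in the self-test. Its rates therefore need not hold for the calls reported here. Occupied regions were compared by two-sided exact permutation, adjusted over the 5 genes.

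Named regions were, for each gene, the most occupied region within 3 kb of a start site, the strongest region over 3 kb from any start site, every region of one state only and every region past the threshold. Other shared regions of the 5 genes are given for completeness, except 1 flank region, which is not reported here. List genes were named when their promoter was open in one state only, passed the threshold or had no peak, at most 8 of a kind. Start sites came from GENCODE M21, while promoter sequences came from the RefSeq table on GRCm38.p6, which held all 5 genes. Genome sequence came from the RefSeq assembly of the same build, read with pysam 0.24.0. The members, lists and tests were chosen with earlier results of these data known. Alternatives were another q, equal list lengths, other flanks and overlaps, other normalisations, libraries left out and the replicate block. Scripts ran in Python 3.11.15 (scipy 1.17.1, pandas 2.3.3, numpy 2.4.6), with plots from matplotlib 3.10.9 and genome indexing by samtools 1.23.1.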

Additional observations from a re-analysis of the deposited data

How the results depend on the processing

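The *Camk2b* call at chr11:6000099-6000794 kept its direction and its side of the threshold in all 12 alternatives. The count of regions higher in DIFF at the 5 genes fell from 2 to 1 when chromosomes 10 and X were left out, which removes *Syt1* and *Bex2*, and ran from 0 to 2 with 1 library left out, being 0 without DIFF replicate 4. The single region higher without DIFF replicate 2 was chr11:6035486-6036083. The count of lower regions was 3 with normal scores of the −log10 p ranks, 2 with median centring and 1 to 2 with 1 library left out. The added regions were chr13:96130829-96131788 at *Sv2c* and, with normal scores, chr9:108832008-108832918 at *Celsr3*.

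Regions open in all 6 libraries fell from 23 to 8 among the strongest 20000 peaks of each library and to 10 when a peak had to cover 50% of the region, and stayed at 23 to 24 with 1 library left out. DIFF-only regions numbered 4 in lists of equal length, 1 under the 50% cover, 5 with replicate 1 left out of both states and 2 to 5 with 1 library left out. PROLIF-only regions numbered 2 in lists of equal length, 1 with flanks of 50 kb, 1 under the 50% cover and 0 to 2 with 1 library left out. For these counts, the shares over all regions in the same settings were not computed. The list genes with a promoter peak in all 6 libraries fell from 62 to 32 among the strongest 20000 peaks. At *Celsr3*, the difference in occupied regions turned from -0.33 to 1.00 among the strongest 20000 peaks and to 0.67 under the 50% cover. The causes were not tested beyond the shorter lists or stricter overlap themselves.

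Small differences changed sign. Values with normal scores are in units of those scores of the −log10 p ranks, not log2 fold enrichment, so only their sign can be compared with the others. The *Syt1* start site gave -0.31 with normal scores and -0.0095 with replicate 1 left out of both states, and -0.073 to 0.077 with 1 library left out. The *Camk2b* region chr11:6030544-6031179 gave 0.090 with normal scores, 0.049 with replicate 1 left out of both states and -0.15 to 0.10 with 1 library left out. The *Sv2c* region chr13:95995123-95995847 ran from -0.16 to 0.18 and the *Bex2* start site from -0.067 to 0.17 with 1 library left out.

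The labels give both states the replicate numbers 1, 2 and 4. Deviations from the state means over 40102 regions correlated at 0.0733, 0.122 and 0.105 between same-numbered libraries and at -0.0914 to -0.0034 between others. All 6 libraries correlated best with their own number. Deviations within a state cancel out by construction, so these correlations depend on one another and are not separate agreements. They are a hint from the data and not the design. With the replicate block, 3 regions were higher in DIFF (adding chrX:136067261-136067762 at *Bex2*) and 2 were lower (adding chr13:96130829-96131788 at *Sv2c*). Paired counting gave 5 DIFF-only and 3 PROLIF-only regions, with a gain or loss in at least 2 of 3 pairs and the opposite in none. It was not run over all regions.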

Other observations

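Markers of the cell types the cultures could hold were read at their promoters. *Nes*, which encodes the intermediate filament of neural stem cells, was lower in DIFF (-0.73 ± 0.19 on the log2 scale, limma adjusted p = 0.0149), the only one of 6 NSC markers past the threshold. *Sox2*, beside whose gene the deleted enhancer lies, gave -0.19 ± 0.15 (adjusted p = 0.421). Neither of the 2 neuronal markers that could be tested passed the threshold, with *Map2* at -0.063 ± 0.084 (adjusted p = 0.682) and *Elavl4* at -0.083 ± 0.10 (adjusted p = 0.650). Of the 5 microglial markers, *Csf1r* and *P2ry12* had a promoter peak in every library and *Cx3cr1* and *C1qa* in none. *P2ry12* was lower in DIFF (-0.69 ± 0.15, adjusted p = 0.00404). The part of other cell types in the results at the 5 genes was not tested.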
